A study of Sus scrofa with 24 samples.

Results

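Growth arrest genes that p53 is known to switch on, together with the GADD45 genes, were followed in cultured porcine meniscus cells. The 9 genes are CDKN1A, MDM2, CCNG1, TP53INP1, SESN1, BTG2, GADD45A, GADD45B and GADD45G. They were chosen by name, as were the gene lists below, with earlier results of these data known. Their counts beside the shares of all genes are therefore descriptions. Each gene had to reach 10 reads in at least 1 library, and all 9 met this bound and were among the 13653 genes tested of 25880 in the count table. RNA sequencing was performed on cells of the medial meniscus, a load-bearing fibrocartilage of the knee joint, from skeletally mature female pigs. Inner zone cells come from the avascular inner part and outer zone cells from the more fibrous, vascular part. Each zone had 4 groups of 3 wells: stretch with IL-1, IL-1 at rest, stretch without IL-1, and untreated cells at rest. Stretch was a cyclic strain of 5% at 0.5 Hz for 4 h, IL-1 was recombinant porcine IL-1α at 0.1 ng/mL, an inflammatory cytokine of injured joints, and both began about 40 h after 250000 cells per well were seeded on collagen-coated flexible membranes. All groups shared 1 expansion passage in medium with serum before seeding, and RNA was taken directly after the 4 h.

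Cells from at least 3 menisci were pooled before seeding, so the spread between wells does not hold the spread between animals, and p-values measure the spread between these wells only. The labels place each treatment on a plate of its own, with both zones on every plate, so plate and treatment cannot be told apart. Inner cells took the same wells of every plate and outer cells the other wells, so zone and well position cannot be told apart either. Libraries held 25377054 to 35284474 reads in genes. Of the fibrochondrocyte markers, 12 of 13 were measurable and summed to between 100550 and 126750 read counts scaled to library size (CPM) in every library. Most of this sum was COL1A1 (44998 to 62615 CPM), COL1A2 and COL3A1, while COL2A1 ran from 5.01 to 42.1 CPM and SOX9 from 9.86 to 21.4 CPM. Of the leukocyte markers, 6 of 10 were measurable, PTPRC reached at most 1 read, and the sum ran from 26.4 to 31.3 CPM with IL-1 and from 19.4 to 19.7 CPM without it in inner cells at rest, and from 40.8 to 44.2 CPM with IL-1 and from 22.7 to 25.2 CPM without it in outer cells at rest, most of it CD14. Endothelial markers (3 of 8 measurable, mostly ERG) summed to between 48.7 and 61.1 CPM over all libraries, and adipocyte markers (1 of 5 measurable) to at most 0.542 CPM. The mural and smooth muscle markers (7 of 8 measurable) summed to between 392 and 399 CPM with stretch and IL-1 and 290.5 to 299 CPM with IL-1 at rest, and to between 489 and 528 CPM with stretch alone and 409.8 to 444 CPM untreated, in inner cells. The part of these shifts in the results below was not tested, and fewer cells of a type cannot be told apart from less RNA per cell.

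p53 is a transcription factor that is stabilised by DNA damage and other stress, and its targets halt the cell cycle, repair DNA, adjust metabolism or start cell death. CDKN1A encodes p21, which blocks cyclin-dependent kinases. MDM2 is the ubiquitin ligase that has p53 degraded, and CCNG1 encodes cyclin G1, which acts on MDM2 through a phosphatase. TP53INP1 is a stress protein that aids p53 and takes part in autophagy, SESN1 encodes sestrin 1, which restrains mTORC1, and BTG2 is an antiproliferative protein that binds the CCR4-NOT deadenylase. The small GADD45 proteins bind PCNA, the CDK1-cyclin B1 pair and the kinase MAP3K4 upstream of p38 and JNK, and they have been linked to DNA demethylation by TET enzymes and TDG. Many of these genes also answer to other factors, such as NF-κB for GADD45B and FOXO factors for GADD45A, so a change in any of them is not by itself a measure of p53 activity. These roles are known mainly from human and mouse cells.

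The pig reference (RefSeq, Sscrofa11.1) was searched for the 20-letter p53 response element, without a spacer and with at most 2 mismatches outside the core C and G of each half-site, from 2500 bases before to 2500 bases after each annotated start. A match lay near 4 of the 9 genes, against 3.01% of 19545 genes. The matches are shown because they are the stretches of these loci nearest to the known binding site, read on the gene's strand with the 4 central letters of each half-site in capitals.
MDM2: ggtCAAGttcggaCAAGttc
CCNG1: taaCAAGttcaggCTAGtcc
BTG2: ggcCTTGcctggaCATGcca
GADD45A: gaaCATGtctaagCACGttg
The MDM2 match (chr5:33106505-33106524, plus strand) is in intron 1, 789 bases after the start, and has 1 mismatch. The CCNG1 match (chr16:60356399-60356418, minus strand) is in intron 1 at 320 bases, with 1 mismatch. The BTG2 match (chr9:64035057-64035076, plus strand) is in intron 1 at 1205 bases and the GADD45A match (chr6:144942439-144942458, minus strand) in intron 3 at 1632 bases, each with 2 mismatches. Human MDM2 and GADD45A are known to carry p53 elements in the same introns. No binding was measured here, and the 4 genes with a match moved in unlike ways, as described below.

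Promoter sequence (250 bases before to 50 after the RefSeq start) is given for GADD45A, the gene that changed most, and for GADD45G, which fell with it. Capitals mark the octamer ATTTGCAT, the CCAAT box and the TATA box TATAAA, each searched on both strands.
GADD45A: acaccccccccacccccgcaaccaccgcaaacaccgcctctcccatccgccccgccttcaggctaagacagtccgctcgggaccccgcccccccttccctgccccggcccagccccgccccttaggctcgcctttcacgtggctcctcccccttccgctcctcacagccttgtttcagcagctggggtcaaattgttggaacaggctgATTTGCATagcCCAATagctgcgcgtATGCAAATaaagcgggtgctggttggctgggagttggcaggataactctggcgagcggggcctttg
GADD45G: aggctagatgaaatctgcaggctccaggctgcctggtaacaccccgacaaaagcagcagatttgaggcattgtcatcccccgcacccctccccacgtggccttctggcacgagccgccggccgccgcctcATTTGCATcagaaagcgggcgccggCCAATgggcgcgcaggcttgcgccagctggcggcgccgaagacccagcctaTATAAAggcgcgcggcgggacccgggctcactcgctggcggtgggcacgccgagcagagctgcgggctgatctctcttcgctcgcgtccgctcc
The GADD45A promoter (chr6:144944040-144944339, minus strand) holds 2 octamers, with first bases at -42 and, on the other strand, -16, on either side of a CCAAT box at -31. The GADD45G promoter (chr14:1165750-1166049, plus strand) holds an octamer at -120, a CCAAT box at -95 and a TATA box at -44. Of 19556 promoters of this length, 1.39% held the octamer, 35.4% the CCAAT box and 10.9% the TATA box. The other 7 promoters held no octamer, those of MDM2 and SESN1, which also fell with IL-1, included, and the GADD45B promoter held a TATA box at -227. CCAAT boxes were also in the promoters of BTG2 (-82) and TP53INP1 (-11), which rose with IL-1, and of CCNG1. The letters of the AP-1 site (TGANTCA), the CHOP-ATF4 site (TGATGNAAT) and the NF-κB consensus were in none of the 9 promoters, against 6.07%, 0.547% and 7.04% of all. The CRE (TGACGTCA) was in the BTG2 promoter alone (2.26% of all) and the FOXO site (TGTTTAC) in the MDM2 promoter alone (2.65% of all). A match describes letters in a window, and its absence says nothing of the factor.

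CCNG1 and CDKN1A were the most abundant of the 9 per length of transcript, and SESN1 and GADD45G the least. Per kilobase of RefSeq exon, untreated inner cells had 108.6 CPM of CCNG1, 77.9 of CDKN1A and 69.1 of GADD45A, and untreated outer cells had 104.7, 55.2 and 51.2 CPM per kilobase of the same genes. MDM2, BTG2, GADD45B and TP53INP1 lay between 12.4 and 25.3 CPM per kilobase in inner cells and between 9.94 and 20.0 in outer cells. GADD45G had 4.64 and SESN1 2.45 CPM per kilobase in inner cells, against 2.83 and 4.87 in outer cells, so the order of this pair turned over between the zones. GADD45G had the fewest reads, 34 to 169 per library, and SESN1 84 to 608, while CCNG1 had 6160 to 10328. Exons of SESN1 overlap those of ARMC2 on the opposite strand, but ARMC2 had at most 16 reads in any library. The plot of the 9 genes by well shows these levels in CPM, not divided by length.

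**Figure D1:**
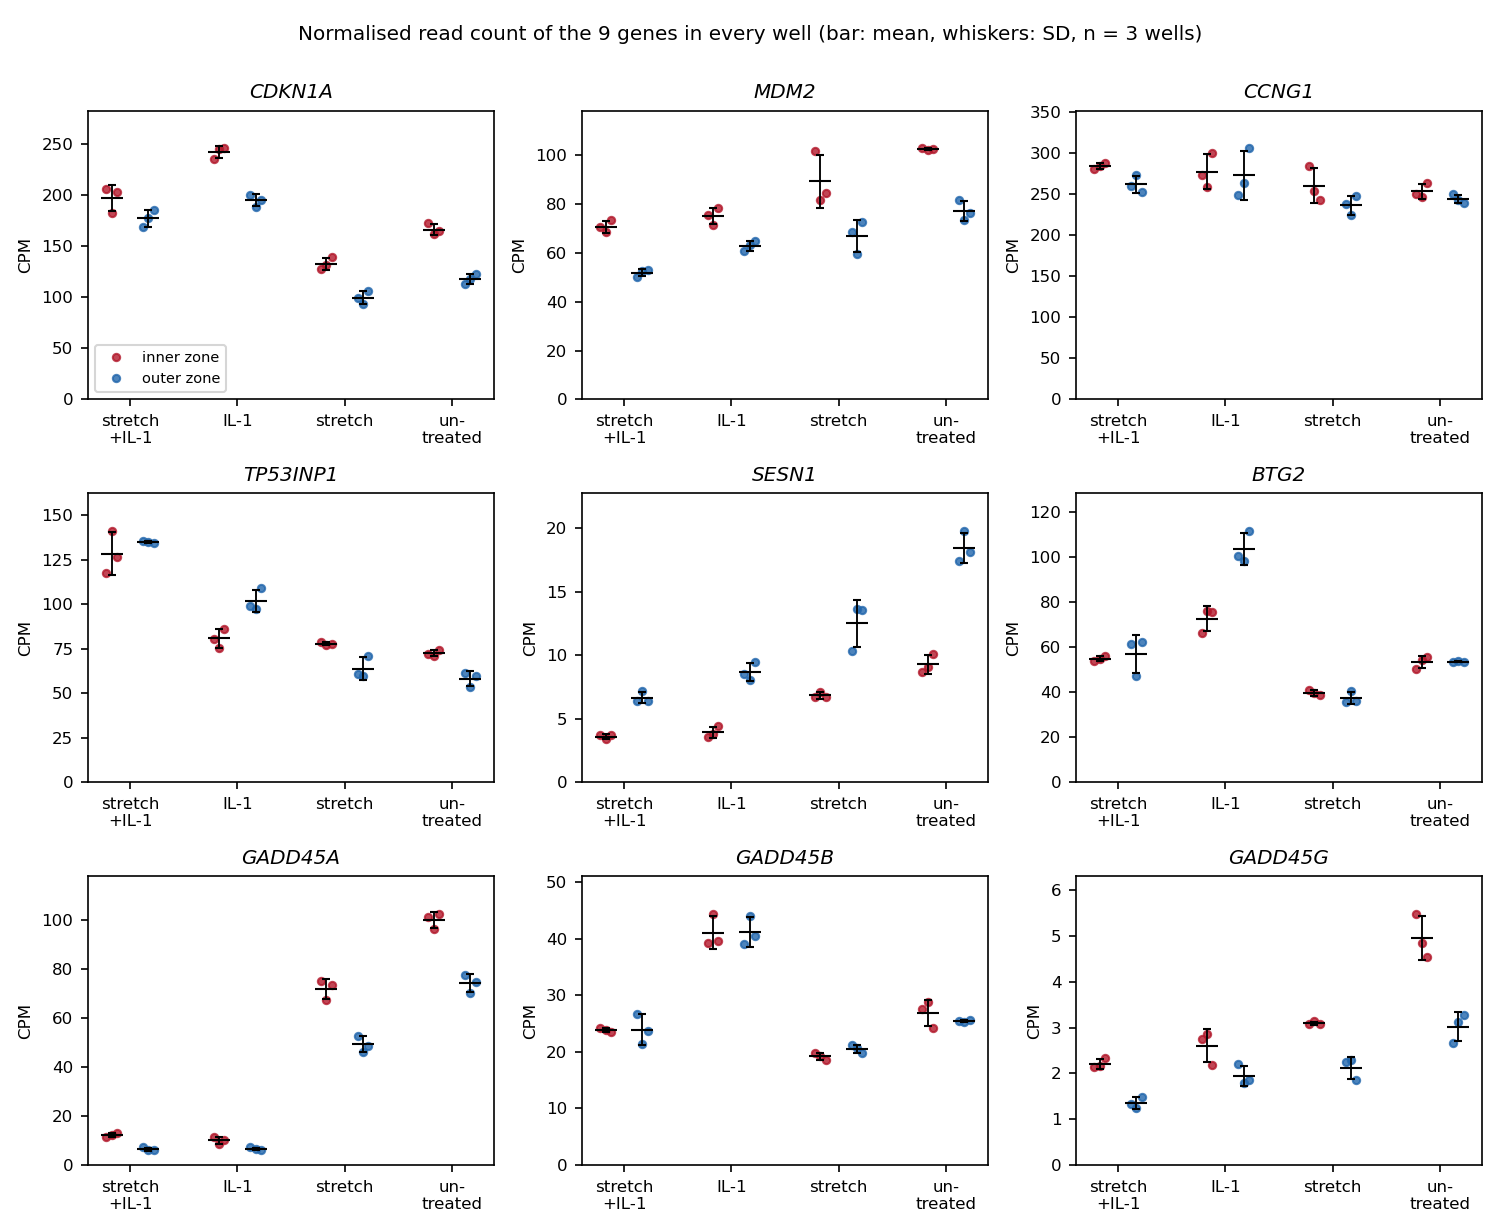
Normalised read count (CPM, linear axis from 0) of each gene in every well, for inner (red) and outer (blue) cells under 4 treatments. Points are wells, bars are means and whiskers are the SD of 3 wells. GADD45A fell to 10.0 CPM with IL-1, against 99.9 CPM untreated, in inner cells, while CCNG1 stayed between 224 and 306 CPM in all wells.

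IL-1 at rest split the group. GADD45A, SESN1, GADD45G and MDM2 fell in both zones, CDKN1A, GADD45B, BTG2 and TP53INP1 rose in both, and CCNG1 moved least. With edgeR's quasi-likelihood test, 8 of 9 passed an adjusted p of 0.05 in inner cells (4 higher, 4 lower), where 65.4% of all tested genes did (32.6% higher, 32.8% lower), and 9 of 9 did in outer cells (5 higher, 4 lower), where 64.6% did (31.1% higher, 33.5% lower). Passing this test under IL-1 was thus common to most genes. Separate wells were common as well. Wells with and without IL-1 did not overlap for 8 of 9 members in each zone, where 70.3% of all genes did not overlap in inner and 68.2% in outer cells. With a fold change over 2 as well, 2 of 9 passed in each zone, both lower, where 15.7% of genes passed in inner and 15.4% in outer cells (7.32% and 7.2% in the lower direction). The median log2 fold change of the 9 was 0.13 in inner and 0.16 in outer cells, beside -0.03 and -0.04 over all genes. Upper-quartile scaling moved the median of all genes to -0.20 and -0.22, and took the share of higher among called genes to 40.6% in inner and 39.8% in outer cells, against 53.5% and 53.3% with TMM scaling. CCNG1, the member at the median of the 9, turned to -0.045 in inner and -0.019 in outer cells with upper-quartile scaling. The positive sign of the members' median thus depended on the scaling.

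GADD45A fell the furthest. It had 11.3, 8.62 and 10.2 CPM in inner cells with IL-1, against 101, 96.2 and 102 CPM untreated. In outer cells it had 7.16, 6.39 and 6.31 CPM with IL-1, against 77.6, 70.2 and 74.5 CPM untreated. The groups lay far apart in both zones, and no well fell between them. The log2 fold change was -3.31 ± 0.07 (SE) in inner cells (adjusted p of 2.66e-29) and -3.49 ± 0.08 in outer cells (adjusted p of 6.13e-29), which left 0.101 and 0.0893 of the untreated level. The zones did not pass a test of their difference (0.17 ± 0.11, adjusted p of 0.393).

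The other family members did not follow it to that depth. GADD45B, in mouse and human cells an early target of NF-κB and TGF-β, had 39.2, 44.4 and 39.5 CPM in inner cells with IL-1, against 27.5, 28.8 and 24.3 CPM untreated. Outer cells had 39.0, 44.1 and 40.5 CPM with IL-1, against 25.5, 25.3 and 25.7 CPM untreated. Every IL-1 well lay above every untreated well, and GADD45B rose by a log2 fold change of 0.61 ± 0.07 in inner (adjusted p of 5.86e-10) and 0.69 ± 0.07 in outer cells (adjusted p of 3.35e-11). GADD45G had 2.76, 2.86 and 2.19 CPM in inner cells with IL-1, against 5.49, 4.85 and 4.54 CPM untreated, and 2.2, 1.79 and 1.87 CPM in outer cells with IL-1, against 2.68, 3.12 and 3.27 CPM untreated. It fell by 0.94 ± 0.13 on the log2 scale in inner cells (adjusted p of 6.07e-08) and by 0.63 ± 0.14 in outer cells (adjusted p of 0.00025), without overlap of wells. Under IL-1 the 3 family members thus took separate courses, a deep fall of GADD45A, a smaller fall of GADD45G and a rise of GADD45B.

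SESN1 was the only other member past a fold of 2. It had 3.59, 3.83 and 4.41 CPM in inner cells with IL-1, against 8.7, 9.06 and 10.1 CPM untreated. In outer cells it had 8.52, 8.06 and 9.5 CPM with IL-1, against 17.5, 19.8 and 18.1 CPM untreated. The log2 fold change was -1.23 ± 0.11 (adjusted p of 1e-11) and -1.08 ± 0.09 (adjusted p of 1.27e-12), and IL-1 brought outer cells to about the level of untreated inner cells, whose wells they overlapped. MDM2 fell less, with 75.5, 71.4 and 78.2 CPM in inner cells with IL-1, against 103, 102 and 102 CPM untreated (log2 fold change -0.45 ± 0.07, adjusted p of 1.02e-06). In outer cells MDM2 had 60.6, 63.1 and 64.8 CPM with IL-1, against 81.4, 73.3 and 76.1 CPM untreated (-0.29 ± 0.07, adjusted p of 0.0004). The wells of MDM2 did not overlap in either zone.

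CDKN1A, whose product p21 arrests the cycle, rose. It had 235, 245 and 246 CPM in inner cells with IL-1, against 173, 161 and 165 CPM untreated, and 200.5, 189 and 195 CPM in outer cells with IL-1, against 113, 117 and 123 CPM untreated. The log2 fold change was 0.54 ± 0.05 (adjusted p of 3.35e-12) and 0.73 ± 0.05 (adjusted p of 2.3e-15), with no overlap. MDM2 and CDKN1A, both textbook p53 targets, therefore moved in opposite directions under IL-1 in each zone. CCNG1 had 273, 259 and 300.2 CPM in inner cells with IL-1, against 250.2, 247 and 263 CPM untreated, and these wells overlapped (0.13 ± 0.06, adjusted p of 0.0784). In outer cells CCNG1 had 249, 264 and 306 CPM with IL-1, against 250.1, 242 and 239.7 CPM untreated, and it passed the test there with overlapping wells (0.16 ± 0.06, adjusted p of 0.0332). That call rested on well 6 with IL-1, without which the value was 0.07, and was also lost without untreated well 5 (0.16) or 6 (0.15) and with no filter (0.18, adjusted p of 0.0523). In inner cells it passed in a fit to inner cells alone (0.14, adjusted p of 0.0305) and without IL-1 well 2 (0.18, adjusted p of 0.0276). With upper-quartile scaling CCNG1 turned to -0.05 in inner and -0.02 in outer cells.

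BTG2 and TP53INP1 were the members whose response to IL-1 differed between the zones. BTG2 had 66.6, 76.0 and 75.8 CPM in inner cells with IL-1, against 50.6, 54.3 and 55.5 CPM untreated. In outer cells it had 101, 98.3 and 112 CPM with IL-1, against 53.4, 54.0 and 53.4 CPM untreated. Untreated wells of the zones overlapped, while with IL-1 every outer well lay above every inner well. BTG2 rose by a log2 fold change of 0.45 ± 0.08 in inner (adjusted p of 1.75e-05) and 0.95 ± 0.08 in outer cells (adjusted p of 5.46e-11), and the inner minus outer difference was -0.51 ± 0.11 (adjusted p of 0.00285). TP53INP1 had 80.8, 75.4 and 86.2 CPM in inner cells with IL-1, against 72.2, 70.9 and 74.3 CPM untreated, and 99.2, 97.6 and 109 CPM in outer cells with IL-1, against 61.2, 53.5 and 60.0 CPM untreated. Its log2 fold change was 0.16 ± 0.07 in inner (adjusted p of 0.0373) and 0.81 ± 0.07 in outer cells (adjusted p of 2.8e-11), a difference of -0.65 ± 0.09 (adjusted p of 2.29e-05). These were the 2 of 9 members past the test of this zone difference, which 9.24% of all genes passed. The small inner rise of TP53INP1 was lost without IL-1 well 1 (0.16) or 3 (0.11) or untreated well 1 (0.16) or 2 (0.14), with RLE scaling (0.15, adjusted p of 0.050014) and with no filter (0.14, adjusted p of 0.158), and turned to -0.02 with upper-quartile scaling.

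With stretch in both groups compared, IL-1 moved the members in the same directions. Of the 9, 8 passed an adjusted p of 0.05 in each zone (4 higher, 4 lower), where 53.5% of all genes passed in inner cells (27.2% higher, 26.3% lower) and 59.4% in outer cells (28.5% higher, 30.9% lower). GADD45A had 11.5, 12.1 and 12.9 CPM in inner cells with stretch and IL-1, against 75.0, 67.3 and 73.4 CPM with stretch alone (log2 fold change -2.55 ± 0.07, adjusted p of 3.71e-26). In outer cells GADD45A had 7.23, 6.06 and 6.06 CPM, against 52.7, 46.2 and 48.6 CPM with stretch alone (-2.93 ± 0.08, adjusted p of 1.54e-26). Its groups again lay wide apart. GADD45A was the only member past a fold of 2 in inner cells, where 9.65% of genes were. In outer cells, where 12.1% of genes were, TP53INP1 joined it in the higher direction, with 135, 135 and 134 CPM with stretch and IL-1, against 60.9, 59.5 and 71.1 CPM with stretch alone (1.08 ± 0.07, adjusted p of 6.61e-14). CDKN1A rose by 0.57 ± 0.05 in inner and 0.83 ± 0.05 in outer cells, and BTG2 by 0.47 ± 0.08 and 0.61 ± 0.08. SESN1 fell by 0.93 ± 0.12 on the log2 scale in inner and 0.91 ± 0.10 in outer cells, GADD45G by 0.48 ± 0.14 and 0.64 ± 0.16, and MDM2 by 0.33 ± 0.07 and 0.37 ± 0.07. GADD45B rose by 0.31 ± 0.07 in inner and 0.22 ± 0.07 in outer cells, the outer call being lost without stretch and IL-1 well 4 (0.13) and with upper-quartile scaling (0.09). CCNG1 did not pass (0.13 ± 0.06, adjusted p of 0.0964, and 0.15 ± 0.06, adjusted p of 0.052). In outer cells CCNG1 did pass with DESeq2 (0.16, adjusted p of 0.0229), RLE scaling (0.16, adjusted p of 0.0342), a fit to outer cells alone (0.16, adjusted p of 0.0342) and without stretch and IL-1 well 6 (0.17) or stretched well 6 (0.18), and in inner cells without stretched well 1 (0.20, adjusted p of 0.0136), while upper-quartile scaling gave -0.0065 there.

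**Figure D2:**
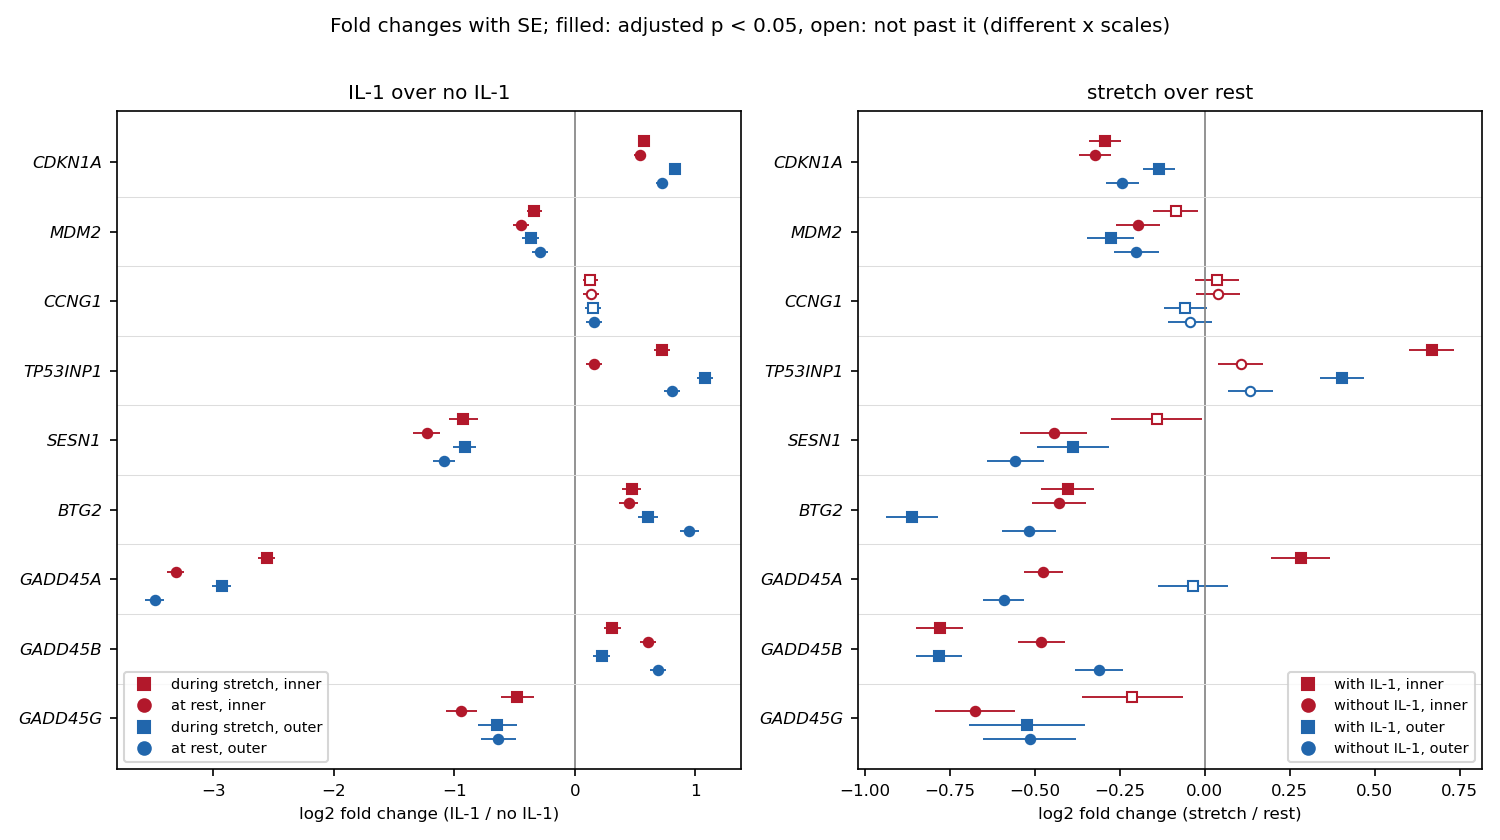
Log2 fold change of each gene with its SE, for IL-1 over no IL-1 (left) and stretch over rest (right), in inner (red) and outer (blue) cells, filled where the adjusted p was under 0.05. IL-1 split the genes to both sides of 0 (GADD45A at -3.31 in inner cells at rest, CDKN1A at 0.54), whereas under stretch without IL-1 (circles) all 7 filled genes of each zone lie below 0.

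Stretch without IL-1 lowered most of the group. In inner cells 7 of 9 passed an adjusted p of 0.05, where 19.9% of all genes passed, and all 7 fell, where 9.29% of genes fell. In outer cells 7 of 9 passed as well, where 21.3% of genes passed, and all 7 fell, where 10.3% did. They were CDKN1A, MDM2, GADD45A, GADD45B, GADD45G, BTG2 and SESN1 in both zones. As the members were chosen with earlier results of these data known, their counts beside these shares are a description. The median log2 fold change of the 9 was -0.43 in inner and -0.31 in outer cells, beside -0.00 and 0.01 over all genes. All changes were small, and none of the 9 passed a fold of 2, which 1.26% of genes passed in inner and 1.36% in outer cells. The wells of the groups did not overlap for 8 of 9 members in inner cells, where 36.1% of genes did not overlap, and for 7 of 9 in outer cells, where 35.8% did not. TP53INP1, among the 8 in inner cells, lay higher with stretch (77.1 to 78.8 CPM, against 70.9 to 74.3 CPM untreated) and did not pass the test. Both zones share no wells, but they share the 2 plates that this comparison rests on.

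GADD45G fell the furthest in inner cells, with 3.08, 3.14 and 3.07 CPM stretched, against 5.49, 4.85 and 4.54 CPM untreated (log2 fold change -0.68 ± 0.12, adjusted p of 4.65e-05). GADD45A fell to 75.0, 67.3 and 73.4 CPM in stretched inner cells, against 101, 96.2 and 102 CPM untreated (-0.48 ± 0.06, adjusted p of 1.15e-07). In outer cells GADD45A had 52.7, 46.2 and 48.6 CPM stretched, against 77.6, 70.2 and 74.5 CPM untreated (-0.59 ± 0.06, adjusted p of 2.28e-09). No stretched well of GADD45A reached an untreated well of its zone. GADD45B had 19.8, 19.3 and 18.6 CPM in stretched inner cells, against 27.5, 28.8 and 24.3 CPM untreated (-0.48 ± 0.07, adjusted p of 2.47e-06), and fell by 0.31 ± 0.07 on the log2 scale in outer cells. SESN1 had 6.71, 7.12 and 6.68 CPM in stretched inner cells, against 8.7, 9.06 and 10.1 CPM untreated (-0.45 ± 0.10, adjusted p of 0.000967). In outer cells SESN1 had 10.3, 13.6 and 13.5 CPM stretched, against 17.5, 19.8 and 18.1 CPM untreated (-0.56 ± 0.08, adjusted p of 5.09e-06). So all 3 GADD45 genes and the sestrin sat lower after stretch, in each zone.

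BTG2 had 40.9, 39.5 and 38.6 CPM in stretched inner cells, against 50.6, 54.3 and 55.5 CPM untreated (-0.43 ± 0.08, adjusted p of 0.000253), and fell by 0.52 ± 0.08 on the log2 scale in outer cells. CDKN1A had 128, 132 and 139 CPM in stretched inner cells, against 173, 161 and 165 CPM untreated (-0.32 ± 0.05, adjusted p of 3.83e-06), and fell by 0.24 ± 0.05 in outer cells. These wells did not overlap either. MDM2 had 101, 81.5 and 84.6 CPM in stretched inner cells, against 103, 102 and 102 CPM untreated, stretched well 1 coming close to the untreated wells, and 68.3, 59.6 and 72.6 CPM in stretched outer cells, against 81.4, 73.3 and 76.1 CPM untreated. Its fall of 0.20 ± 0.06 in inner (adjusted p of 0.0289) and 0.20 ± 0.07 in outer cells (adjusted p of 0.0278) was the weakest of the 7. The inner call was lost on leaving out untreated well 1 (-0.19), 2 (-0.20) or 3 (-0.20) or stretched well 2 (-0.14) or 3 (-0.16), and the outer call without untreated well 4 (-0.16) or 6 (-0.21) or stretched well 5 (-0.13) and with no filter (-0.20, adjusted p of 0.0562). TP53INP1 did not pass, at 0.11 ± 0.07 in inner (adjusted p of 0.301) and 0.13 ± 0.07 in outer cells (adjusted p of 0.168), nor did CCNG1, at 0.04 ± 0.06 (adjusted p of 0.755) and -0.04 ± 0.06 (adjusted p of 0.692). No member passed the test of a difference between the zones in this response, which 0.366% of genes passed. The members' values for that difference ran from -0.17 for GADD45B to 0.12 for GADD45A, and DESeq2 called none of them either, while none had an unadjusted p under 0.05.

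In the presence of IL-1, stretch acted on the members unevenly. In inner cells 5 of 9 passed an adjusted p of 0.05 (2 higher, 3 lower), where 34.7% of all genes passed (16.6% higher, 18.1% lower), and in outer cells 7 of 9 (1 higher, 6 lower), where 28.2% passed (13.1% higher, 15.1% lower). None passed a fold of 2, which 3.71% and 2.48% of genes did. TP53INP1 rose to 118, 141 and 127 CPM in inner cells with stretch and IL-1, against 80.8, 75.4 and 86.2 CPM with IL-1 at rest (0.67 ± 0.07, adjusted p of 4.33e-09). In outer cells it rose to 135, 135 and 134 CPM, against 99.2, 97.6 and 109 CPM with IL-1 at rest (0.40 ± 0.06, adjusted p of 1.72e-05). Its level with both treatments was the highest of its 4 treatments in each zone.

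GADD45B fell to 24.2, 23.8 and 23.6 CPM in inner cells with stretch and IL-1, against 39.2, 44.4 and 39.5 CPM with IL-1 at rest (-0.78 ± 0.07, adjusted p of 2.18e-11). In outer cells it had 26.7, 21.3 and 23.7 CPM, against 39.0, 44.1 and 40.5 CPM with IL-1 at rest (-0.78 ± 0.07, adjusted p of 4.6e-11). With both treatments GADD45B lay near the untreated level of 26.9 ± 2.36 CPM in inner and 25.5 ± 0.194 CPM in outer cells (SD, n = 3), a difference that was not tested. Inner wells with both treatments reached at most 24.2 CPM, just under the lowest untreated inner well at 24.3 CPM, and the outer wells overlapped. BTG2 fell to 54.0, 54.7 and 56.3 CPM in inner cells with stretch and IL-1, against 66.6, 76.0 and 75.8 CPM with IL-1 at rest (-0.40 ± 0.08, adjusted p of 0.000186). In outer cells BTG2 had 61.6, 47.0 and 62.1 CPM, against 101, 98.3 and 112 CPM with IL-1 at rest (-0.86 ± 0.08, adjusted p of 3.43e-09). The inner minus outer difference for BTG2 was 0.46 ± 0.11 (adjusted p of 0.0219), the only such call among the 9, where 2.33% of genes passed. It was lost without inner IL-1 well 1 (0.40), inner stretch and IL-1 well 2 (0.46) or 3 (0.45), or outer IL-1 well 6 (0.40), and with no filter (0.46, adjusted p of 0.0804).

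GADD45A, which stretch lowered without IL-1, was not lowered by it in the presence of IL-1. In inner cells its 11.5, 12.1 and 12.9 CPM with stretch and IL-1 lay above the 11.3, 8.62 and 10.2 CPM with IL-1 at rest, by a log2 fold change of 0.28 ± 0.09 (adjusted p of 0.0103). The call was lost without IL-1 well 2 (0.19) or without stretch and IL-1 well 3 (0.23). In outer cells the wells overlapped, with 7.23, 6.06 and 6.06 CPM with stretch and IL-1, against 7.16, 6.39 and 6.31 CPM with IL-1 at rest (-0.03 ± 0.10, adjusted p of 0.846). CDKN1A fell by 0.29 ± 0.05 on the log2 scale in inner (adjusted p of 5.18e-06) and by 0.14 ± 0.05 in outer cells (adjusted p of 0.0302), the outer call being lost without IL-1 well 4 (-0.11) or 6 (-0.13) or stretch and IL-1 well 4 (-0.10) or 5 (-0.14), and with upper-quartile scaling (-0.085, adjusted p of 0.189). MDM2 fell by 0.28 ± 0.07 (adjusted p of 0.00267), SESN1 by 0.39 ± 0.10 (adjusted p of 0.00448) and GADD45G by 0.52 ± 0.17 (adjusted p of 0.0191) in outer cells, the GADD45G call being lost without IL-1 well 4 (-0.43) or stretch and IL-1 well 5 (-0.47). In inner cells these 3 genes had values of -0.09 ± 0.07, -0.14 ± 0.13 and -0.21 ± 0.15 with overlapping wells and did not pass (adjusted p of 0.354, 0.456 and 0.289). None of the 3 passed the test of the difference between zones. CCNG1 again had overlapping wells, at 0.04 ± 0.06 in inner (adjusted p of 0.716) and -0.06 ± 0.06 in outer cells (adjusted p of 0.568).

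The interaction, that is the log2 fold change for stretch in the presence of IL-1 less that in its absence, was past an adjusted p of 0.05 for 3 of 9 members in each zone, where 19.7% of genes passed in inner and 13.2% in outer cells. GADD45A had a positive interaction of 0.76 ± 0.10 in inner (adjusted p of 1.03e-06) and 0.56 ± 0.12 in outer cells (adjusted p of 0.000975), stretch having lowered it without IL-1 only. GADD45B had a negative interaction, -0.30 ± 0.10 in inner (adjusted p of 0.026) and -0.47 ± 0.10 in outer cells (adjusted p of 0.000638), stretch having lowered it more with IL-1. The third in inner cells was TP53INP1, at 0.56 ± 0.09 (adjusted p of 4.93e-05), and its value in outer cells was 0.27 ± 0.09 (adjusted p of 0.0541). The third in outer cells was BTG2, at -0.34 ± 0.11 (adjusted p of 0.0378). GADD45G in inner cells had 0.46 ± 0.19 and did not pass (adjusted p of 0.0866). The inner GADD45B call was lost without IL-1 well 2 (-0.24), untreated well 3 (-0.23), stretch and IL-1 well 3 (-0.29) or stretched well 1 (-0.28), and with upper-quartile scaling (-0.26, adjusted p of 0.0568). The outer BTG2 call was lost on leaving out IL-1 well 6 (-0.29), untreated well 4 (-0.34), 5 (-0.35) or 6 (-0.34), stretch and IL-1 well 5 (-0.23) or stretched well 5 (-0.28), with upper-quartile scaling (-0.30, adjusted p of 0.0703), with no filter (-0.35, adjusted p of 0.115) and in a fit to outer cells alone (-0.35, adjusted p of 0.147). TP53INP1 in outer cells passed instead without IL-1 well 6 (0.32), untreated well 5 (0.33) or stretched well 6 (0.35), with DESeq2 (0.27, adjusted p of 0.0442), with upper-quartile scaling (0.32, adjusted p of 0.0233) and with the replicate block (0.27, adjusted p of 0.0254).

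Inner and outer cells differed in most members before any treatment. In untreated cells 6 of 9 passed an adjusted p of 0.05, where 45% of all genes passed, with 5 higher in inner cells (20.7% of genes) and SESN1 lower (24.3% of genes). SESN1 had 8.7, 9.06 and 10.1 CPM in inner cells, against 17.5, 19.8 and 18.1 CPM in outer cells (-0.99 ± 0.09, adjusted p of 2.14e-11). GADD45G had 5.49, 4.85 and 4.54 CPM in inner cells, against 2.68, 3.12 and 3.27 CPM in outer cells (0.71 ± 0.12, adjusted p of 8.38e-06). SESN1 lay just under a fold of 2, which no member passed and 6.71% of genes did. Neither gene had overlapping wells, where 56.9% of all genes did not overlap, and their zone differences ran in opposite directions. CDKN1A was higher in inner cells by 0.50 ± 0.05, GADD45A by 0.43 ± 0.06, MDM2 by 0.41 ± 0.06 and TP53INP1 by 0.32 ± 0.07 (adjusted p of 1.35e-10, 1.62e-07, 7.4e-06 and 0.000319). GADD45B (0.08 ± 0.07, adjusted p of 0.38), CCNG1 (0.05 ± 0.06, adjusted p of 0.534) and BTG2 (-0.00 ± 0.08, adjusted p of 0.974) did not pass.

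The treatments changed some of these zone differences. After stretch alone the same 6 genes passed with the same signs, where 44.1% of genes passed. With IL-1, 7 of 9 passed, where 46.8% of genes did, and TP53INP1 was then lower in inner cells, at -0.33 ± 0.07 (adjusted p of 0.000132), as was BTG2 at -0.51 ± 0.08 (adjusted p of 4.28e-06). SESN1 was past a fold of 2 with IL-1 (-1.13 ± 0.12, adjusted p of 4.54e-10), where 6.88% of genes were. GADD45G was higher in inner cells with IL-1 by 0.40 ± 0.15 with overlapping wells (adjusted p of 0.0303), a call lost without inner well 1 (0.35) or 2 (0.33) or outer well 5 (0.35) or 6 (0.37), with DESeq2 (0.40, adjusted p of 0.0635) and with no filter (0.38, adjusted p of 0.0789). With stretch and IL-1, 5 of 9 passed, where 48.1% did: GADD45A at 0.92 ± 0.09, GADD45G at 0.71 ± 0.17, MDM2 at 0.45 ± 0.07, CDKN1A at 0.15 ± 0.05 and SESN1 at -0.89 ± 0.12. The CDKN1A call, with overlapping wells, was lost without inner well 1 (0.12) or 3 (0.11) or outer well 4 (0.12). It was also lost with the replicate block (0.10, adjusted p of 0.137). Replicate numbers differ between the zones, so that block cannot test a zone difference. MDM2, GADD45A, GADD45G and CDKN1A were thus higher in inner cells and SESN1 in outer cells under all 4 treatments.

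**Figure D3:**
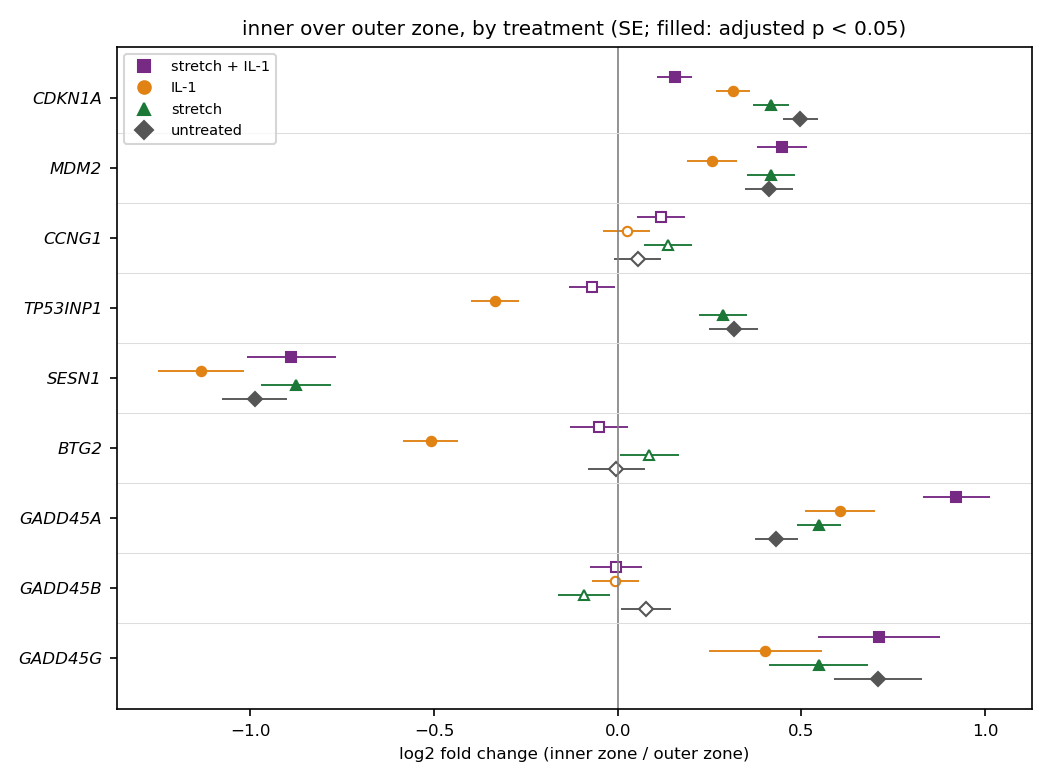
Log2 fold change of inner over outer cells with its SE, by gene and treatment, filled where the adjusted p was under 0.05. SESN1 lies left of 0 under every treatment (-0.99 untreated), GADD45A right of it (0.43 untreated), and TP53INP1 changes side with IL-1 (-0.33).

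Ordered by mean, the 8 groups fell into steps for some genes and into a continuum for others. GADD45A formed 2 blocks, all 4 groups without IL-1 (49.2 to 99.9 CPM in the mean) above all 4 with it (6.45 to 12.2 CPM). Within them, untreated outer and stretched inner cells overlapped, as did both IL-1 groups of outer cells. SESN1 ran from 18.5 CPM in untreated outer cells to 3.59 CPM in inner cells with stretch and IL-1, with inner cells always below outer cells of the same treatment. CDKN1A ran from 242 CPM in inner cells with IL-1 to 99.5 CPM in stretched outer cells, and its neighbours in that order overlapped at 2 of 7 steps. CCNG1 overlapped at every step, from 285 to 237 CPM.

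MDM4 and SIRT1, which encode regulators of the p53 protein, rose with IL-1 at rest. They come from a longer list of such regulators, which is not described as a whole. MDM4 was set to be named whatever its change, SIRT1 was named for the size of its change, and a further gene that the rule names is not reported here. The pair therefore does not stand for the list. MDM4, the partner of MDM2 in restraining p53, averaged 25.9 CPM in inner cells with IL-1, against 16.4 CPM untreated, and 20.0 CPM in outer cells with IL-1, against 13.9 CPM untreated. On the log2 scale MDM4 rose by 0.65 ± 0.07 in inner cells and by 0.53 ± 0.07 in outer cells, where MDM2 fell. SIRT1, a deacetylase, was past a fold of 2, at 1.13 ± 0.07 and 1.08 ± 0.07. MDM4 did not pass the test for stretch without IL-1 in either zone (0.04 ± 0.07, adjusted p of 0.761, in inner and 0.07 ± 0.08, adjusted p of 0.607, in outer cells).

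A wider list of 61 further p53 targets, 55 of them tested, moved in both directions under IL-1. At rest in inner cells 24 rose and 18 fell, where 32.6% of all genes rose and 32.8% fell (median log2 fold change 0.06, against -0.03 over all genes). In outer cells 27 rose and 20 fell, where 31.1% of all genes rose and 33.5% fell (0.12, against -0.04). By size the changes named first in inner cells were LIF (5.92 ± 0.15), a cytokine, PRDM1 (4.65 ± 0.20), PMAIP1 (3.60 ± 0.09), a BH3-only death gene, and NINJ1 (2.41 ± 0.07). In outer cells they were LIF (4.96 ± 0.14), IGFBP3 (3.03 ± 0.25), which binds insulin-like growth factors, PMAIP1 (2.90 ± 0.09) and SUSD6 (2.05 ± 0.06). PRDM1 and IGFBP3 had low untreated levels. PRDM1 averaged 12.0 CPM with IL-1, against 0.477 CPM untreated, in inner cells, and IGFBP3 5.14 CPM, against 0.620 CPM, in outer cells. In outer cells with IL-1, PRDM1 averaged 4.29 CPM, under the bound of 5 CPM for naming a gene. Past a fold of 2, 15 rose and 6 fell in inner cells, where 8.42% of all genes rose and 7.32% fell. Outer cells had 17 higher and 6 lower, where 8.2% rose and 7.2% fell. SESN3, described below, was among those that fell. Stretch without IL-1 lowered 13 and raised 4 in inner cells, where 9.29% of all genes fell and 10.6% rose (median -0.06, against -0.00). The outer cells had 15 lower and 2 higher, where 10.3% fell and 11% rose (median -0.07, against 0.01), and none was past a fold of 2 in either zone. With IL-1 present, stretch lowered 19 and raised 11 in inner cells, where 18.1% of genes fell and 16.6% rose, and lowered 14 and raised 12 in outer cells, where 15.1% fell and 13.1% rose. TIGAR, a regulator of glycolysis, then fell by 1.76 ± 0.11 on the log2 scale in inner and 1.52 ± 0.11 in outer cells, TNFAIP8 by 1.74 ± 0.12 and 1.33 ± 0.11, and PRDM1 by 1.18 ± 0.14 in inner cells.

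Of the closest relatives of the members, some moved with them and some the other way. SESN2, a sestrin gene that ATF4 also induces, averaged 67.4 CPM in inner cells with IL-1, against 25.9 CPM untreated, and rose by 1.38 ± 0.07 in inner and 1.42 ± 0.07 in outer cells, where SESN1 fell. SESN3, a FOXO target in human and mouse cells, averaged 5.89 CPM in inner cells with IL-1, against 24.7 CPM untreated, and fell by 2.07 ± 0.09 on the log2 scale in inner and 1.29 ± 0.08 in outer cells. Stretch during IL-1 lowered SESN2, by 1.27 ± 0.07 on the log2 scale in inner cells, and outer cells averaged 27.2 CPM with stretch and IL-1, against 54.5 CPM with IL-1 at rest. With IL-1 at rest, SESN2 thus rose where SESN1 and SESN3 fell, in both zones. In the BTG family, BTG3 rose with IL-1 by 1.27 ± 0.04 and 1.33 ± 0.04 and BTG1 by 1.04 ± 0.04 and 1.36 ± 0.04, more than BTG2. CDKN2C, which encodes the CDK4 and CDK6 inhibitor p18, fell by 1.19 ± 0.05 in inner cells, where CDKN1A rose. Over 15 relatives, 14 of them tested, 6 rose and 6 fell with IL-1 at rest in inner cells (32.6% and 32.8% of all genes; median -0.09, against -0.03), and 8 rose and 5 fell in outer cells (31.1% and 33.5%; median 0.26, against -0.04). Stretch without IL-1 lowered 5 and raised 1 in inner cells (9.29% and 10.6% of all genes) and lowered 5 and raised 3 in outer cells (10.3% and 11%).

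**Figure D4:**
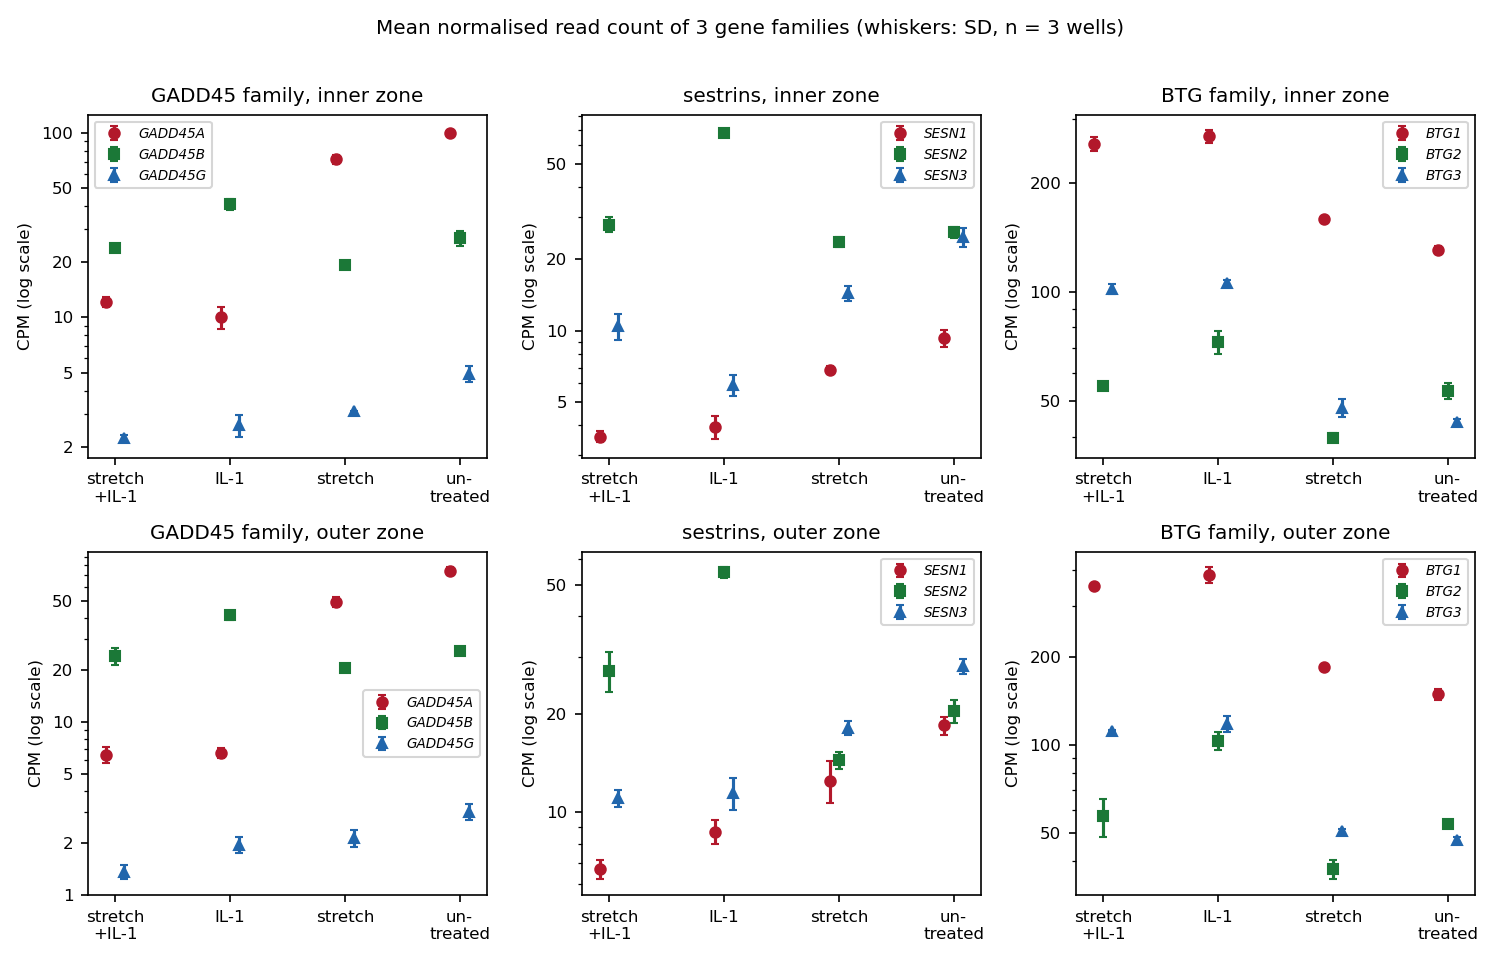
Mean read count (CPM, log axis) of the GADD45, sestrin and BTG genes in inner (top) and outer (bottom) cells under 4 treatments, with the SD of 3 wells. In inner cells at rest SESN2 is at 67.4 CPM with IL-1, against 25.9 CPM untreated, and SESN3 at 5.89 CPM, against 24.7 CPM. Counts are not divided by length, so heights compare treatments within a gene.

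Genes for proteins that GADD45 binds or works with showed mixed changes. Of 19, 18 were tested, and with IL-1 at rest 8 rose and 6 fell in inner cells (32.6% and 32.8% of all genes; median -0.01, against -0.03), and 10 rose and 5 fell in outer cells (31.1% and 33.5%; median 0.28, against -0.04). TET1, a 5-methylcytosine dioxygenase, rose by 2.76 ± 0.07 in inner and 2.80 ± 0.07 in outer cells, and MAP2K3, a kinase that activates p38, by 1.04 ± 0.04 and 1.07 ± 0.04. PCNA, the replication clamp, rose by 1.43 ± 0.07 and TET2, a relative of TET1, by 1.13 ± 0.06 in outer cells. With stretch without IL-1, 4 rose and 4 fell in inner cells (10.6% and 9.29% of all genes), and 3 rose and 3 fell in outer cells (11% and 10.3%).

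Of 20 FOXO factors and targets, 19 were tested, and stretch without IL-1 lowered 8 and raised 3 in inner cells, where 9.29% of all genes fell and 10.6% rose (median -0.14, against -0.00 over all genes). The outer cells had 11 lower and 4 higher, where 10.3% fell and 11% rose (median -0.39, against 0.01). With IL-1 at rest 6 rose and 7 fell in inner cells (32.6% and 32.8% of all genes), and 10 rose and 4 fell in outer cells (31.1% and 33.5%). TRIB1, a pseudokinase, rose with IL-1 by 2.39 ± 0.07 in inner and 2.33 ± 0.07 in outer cells, and TXNIP, which binds thioredoxin, by 1.90 ± 0.09 and 1.66 ± 0.12. PIK3IP1, an inhibitor of PI3 kinase, fell in inner (-1.16 ± 0.14) and outer cells (-1.76 ± 0.13), and SESN3 and BTG1, given above, are also on this list. With stretch during IL-1, CITED2, a transcriptional co-regulator, rose by 1.40 ± 0.08 and FOXO1 by 1.01 ± 0.09 in inner cells. FOXO1 also averaged 59.7 CPM in outer cells with stretch and IL-1, against 30.6 CPM with IL-1 at rest (0.97 ± 0.08, adjusted p of 2.26e-09), just under a fold of 2.

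Most genes of DNA replication and mitosis fell with IL-1, where CDKN1A rose. Of 36 such genes, 30 were tested, and IL-1 at rest lowered 23 and raised 2 in inner cells, where 32.8% of all genes fell and 32.6% rose (median log2 fold change -0.42, against -0.03 over all genes). It lowered 24 and raised 3 in outer cells, where 33.5% fell and 31.1% rose (-0.45, against -0.04). CCND1, which encodes cyclin D1, fell by 1.34 ± 0.05 on the log2 scale in inner and 1.55 ± 0.05 in outer cells, MCM4, of the replicative helicase, by 1.08 ± 0.05 and 1.32 ± 0.06, and FOXM1, a factor of mitotic genes, by 1.21 ± 0.08 and 1.24 ± 0.09. BUB1B, a mitotic checkpoint kinase, fell by 1.24 ± 0.09 in inner cells, and PCNA, given above, is 1 of the 3 that rose in outer cells. After stretch without IL-1, where CDKN1A, BTG2 and the GADD45 genes fell, 10 of the list fell and 3 rose in inner cells (9.29% and 10.6% of all genes; median -0.11), and 2 fell and 3 rose in outer cells (10.3% and 11%; median 0.07). Untreated inner cells, with more CDKN1A than outer cells, had 26 of the 30 higher and 1 lower, where 20.7% of all genes were higher and 24.3% lower (median 0.78, against -0.01). AURKB (1.22 ± 0.07), TOP2A (1.18 ± 0.08), E2F2 (1.08 ± 0.15) and CDK1 (1.07 ± 0.09) were past a fold of 2 there. Whether the share of dividing cells differed between groups was not measured.

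For each member the gene with the most similar profile was sought by Pearson's r of mean log2 CPM over the 8 groups, among 9669 or 9670 genes with a symbol and at least 5 CPM in a group. These are descriptions, and points that share plates, zones and the strong IL-1 effect give high values for many genes. CDKN1A was nearest to GDF15 (r = 0.993), itself a known p53 target that rose with IL-1. GADD45A was nearest to PPCDC (r = 0.996), SESN1 to LXN (r = 0.994), BTG2 to USO1 (r = 0.988), CCNG1 to GOLT1B (r = 0.987), MDM2 to MXD3 (r = 0.985), GADD45B to LIG4 (r = 0.984), GADD45G to ALPK1 (r = 0.983) and TP53INP1 to CCNT1 (r = 0.979). The only pair within the 9 among the 3 nearest genes of each was GADD45G with MDM2 (r = 0.981), which were both highest in untreated inner cells and lowest in outer cells with stretch and IL-1.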

How the data were processed

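Per the labels and the study's methods, the authors trimmed reads with Trim Galore, aligned them to Sscrofa11.1 with STAR and deposited whole-number counts per gene from HTSeq, using reads that mapped to a single place; the strand setting is not given in the sources used here. A deposited table of normalised values and the authors' own comparisons were not used. Here genes with at least 10 reads in at least 1 library were kept, scaled by TMM, and tested with edgeR (4.0.16, R 4.3.3) by the quasi-likelihood F test over 8 group means, with Benjamini-Hochberg adjustment over 13653 genes. Error is the SE of the log2 fold change, computed as the absolute log2 fold change over the square root of the F statistic. A call needed an adjusted p under 0.05, and where stated a fold over 2. On simulated counts of IL-1 at rest in inner cells (13356 genes), 45 of 50 genes changed 1.5-fold and 49 of 50 changed 2-fold were found. Only these genes and 50 each at 3-fold and 4-fold were changed there, whereas 65.4% of genes passed in the data. Recovery under so broad a change was not tested. Alternatives were other scalings and filters, DESeq2 (1.42.0), fits within a zone, a replicate block and leaving out each well. Depth was 25377054 to 35284474 reads, and replicates differed by more than counting noise. The genes and lists were chosen with earlier results of these data known. All 9 genes were named, and of each list, in the comparisons for which its counts are given, up to 4 genes with the largest change past a fold of 2 and at least 5 CPM, FOXO1 in outer cells being added after its values were seen; MDM4 was always named. The counts of the list of p53 regulators and 1 gene that the rule names are not reported here. Values of a listed gene in further comparisons, and BTG1 in inner cells, were added after they were seen.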

Additional observations from a re-analysis of the deposited data

Results flagged for a closer look

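Of the 9 genes, 2 had an IL-1 response at rest that differed between inner and outer cells in a test of the difference itself. The inner minus outer difference in log2 fold change was -0.65 for TP53INP1 (rise of 0.16 in inner and 0.81 in outer cells, adjusted p of 2.29e-05) and -0.51 for BTG2 (rise of 0.45 in inner and 0.95 in outer cells, adjusted p of 0.00285). The response of BTG2 to stretch in the presence of IL-1 also differed, by 0.46 (-0.40 in inner and -0.86 in outer cells, adjusted p of 0.0219). Both BTG2 differences use the same IL-1 wells at rest.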

How the results depend on the processing

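Of 740 values under other scalings, filters, tools and fits, 710 kept their direction and their side of the threshold, as did 666 of 726 with a well left out. With upper-quartile scaling the sign turned for TP53INP1 with IL-1 at rest in inner cells (-0.018), CCNG1 with IL-1 (-0.045 in inner and -0.019 in outer cells at rest, -0.0065 in inner cells during stretch) and GADD45A for stretch with IL-1 in outer cells (0.016), and 2 members passed a fold of 2 for IL-1 during stretch in inner cells. BTG2 between untreated zones was 0.0065 with that scaling, 0.012 with RLE scaling or DESeq2 and 0.013 with no filter. The share of higher among called genes fell with that scaling to 50.7% in inner and 43.6% in outer cells for IL-1 during stretch (62.6% and 53.2% with TMM) and rose to 56.9% and 56.8% for the interaction (44.0% and 41.0%). With no filter, no member passed the zone difference of stretch with IL-1 (0). With a well left out, that count ran from 0 to 2, members past a fold of 2 between zones from 0 to 1 untreated and from 0 to 1 with stretch and IL-1, members higher with stretch and IL-1 over IL-1 in inner cells from 1 to 2, and members lower in inner cells with stretch and IL-1 from 1 to 2. CCNG1 then ran from -0.011 to 0.097 (inner) and -0.12 to 0.033 (outer) for stretch with IL-1 and from -0.029 to 0.086 for stretch alone in inner cells, BTG2 between untreated zones from -0.032 to 0.034, and GADD45A for stretch with IL-1 in outer cells from -0.13 to 0.024. The cause was not tested. Equal replicate numbers did not pair the wells (r of same-numbered deviations -0.249 to 0.335, over 0.1 in 11 of 36 pairs, 9 of 24 wells nearest to their own number). With the replicate block TP53INP1 passed the outer interaction (0.27). Inner and outer wells carry different replicate numbers, so with the block a zone value compares 1 well number of each zone, not the zone means. Such values, which are among the 740, cannot test a zone difference. Among them, 1 member passed a fold of 2 between untreated zones (0 without the block) and CDKN1A lost its zone call with stretch and IL-1 (0.10).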
